A study of Mus musculus with 6 samples.

Results

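The respiratory chain genes described here are the 89 protein-coding genes, of 34866 genes in the estimated count table, whose GENCODE M21 symbol begins with Nduf, Uqcr or Cox4 to Cox8, is Sdha, Sdhb, Sdhc or Sdhd, or names a protein gene of the mitochondrial genome. The nuclear genome carries 76 of them, spread over 19 chromosomes, and the mitochondrial genome the other 13. By complex, 44 nuclear and 7 mitochondrial genes belong to complex I, 4 nuclear genes to complex II, 8 nuclear and 1 mitochondrial gene to complex III, 20 nuclear and 3 mitochondrial genes to complex IV, and 2 mitochondrial genes to ATP synthase (complex V). The 44 nuclear complex I genes include 8 assembly factors (Ndufaf1 to Ndufaf8), which help to build the complex and are not part of it, and the 20 complex IV genes include 8 tissue-restricted paralogs.

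RNA was profiled from intestinal adenomas cut out of C57BL/6J mice aged 100 to 120 days, with 3 libraries from Apc1322T/+ mice and 3 from ApcMin/+ mice. Both alleles are germline truncations of the tumour suppressor Apc, which the mice carry with a wild-type allele. For ApcMin mice, the study states that each adenoma arises through Apc loss of heterozygosity (loss of the wild-type allele) in 1 epithelial cell. ApcMin leaves essentially no Apc function, whereas the longer Apc1322T protein keeps part of its ability to regulate β-catenin. The comparison of both genotypes therefore asks how the RNA of adenomas differs with the strength of the Apc truncation. Neither group is a normal tissue, so no level here can be set against untransformed intestine. The tissue was excised whole, and the study's methods describe RNA preparations from 1 mouse pooled into a sample.

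The respiratory chain sits in the inner mitochondrial membrane. Complex I takes electrons from NADH and complex II from succinate, both pass them through ubiquinone to complex III, cytochrome c carries them to complex IV, and complex IV reduces oxygen. Complexes I, III and IV pump protons as they do so, and ATP synthase uses the proton gradient. Most subunits are made in the cytosol from nuclear genes and imported, while the mitochondrial genome encodes core membrane subunits of every complex except complex II, so the chain is assembled from products of both genomes. In the small intestine, absorptive enterocytes on the villus are rich in mitochondria.

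The libraries held 23132461 to 33518324 estimated counts, and CPM below is a count scaled to 1000000 counts of its library, by the library total for sums and by the TMM-scaled total for log2 CPM. Of the 89 genes, 85 passed the filter on low counts that left 16536 genes tested in all. Some libraries differed in the surrounding tissue. The 5 acinar pancreas markers summed to 158.9 CPM in ApcMin replicate 1 and to 0.2 to 0.9 CPM in the other 5 libraries, and the 6 adipocyte markers to 61.5 CPM in Apc1322T replicate 2 and 4.9 to 8.8 CPM elsewhere. All 7 epithelial markers had lower means in ApcMin (summed CPM 13955.0 to 15863.0 in Apc1322T and 11917.2 to 14010.6 in ApcMin, median log2 fold change -0.34), as did all 10 enterocyte markers (16955.7 to 26319.2 and 10447.0 to 21400.8 CPM, median -0.84) and all 7 goblet cell markers (6316.8 to 8729.5 and 4514.6 to 6920.7 CPM, median -0.54). All 6 fibroblast markers had higher means in ApcMin (549.3 to 1526.3 and 1032.8 to 3529.5 CPM, median 1.01). Likewise higher in ApcMin were the means of all 7 smooth muscle markers (141.4 to 271.3 and 319.6 to 459.7 CPM, median 0.63), all 5 endothelial markers (83.4 to 139.3 and 140.7 to 197.8 CPM, median 0.26) and all 5 macrophage markers (58.9 to 87.3 and 89.3 to 189.8 CPM, median 0.73). Of 19 marker lists, the sums were separate and higher in ApcMin for 5 and overlapped in the others. The 5 were smooth muscle, endothelium, macrophage, Paneth cell (1454.2 to 2510.8 and 2676.8 to 3054.3 CPM, with 5 of 6 log2 fold changes above 0) and nerve and glia (4.2 to 5.3 and 7.2 to 8.7 CPM). The 5 crypt base stem cell markers, Lgr5 among them, were present in every library at 372.4 to 536.4 and 516.4 to 547.6 CPM, with 3 means lower and 2 higher in ApcMin.

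Nearly all respiratory chain genes had a lower mean level in ApcMin than in Apc1322T adenomas. The log2 fold change, which is always the level in ApcMin minus that in Apc1322T on the log2 scale, was below 0 for 81 of the 85 tested genes, including each of the 60 nuclear genes that are neither assembly factors nor paralogs and each of the 13 mitochondrial genes. Over all genes tested, 47.6% were below 0. The median was -0.25 over those 60 nuclear genes, a level in ApcMin of 84.1% of that in Apc1322T, -0.24 over the mitochondrial genes and 0.02 over all genes.

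No respiratory chain gene passed the adjusted p threshold of 0.01 in edgeR's quasi-likelihood test, and neither did any other gene (0.0% of genes tested). The smallest adjusted p among the 85 was 0.257. At an unadjusted p under 0.05, 39 of the 85 were lower in ApcMin, beside 7.6% of all genes, and none was higher, beside 7.49% of all genes. In 46 of the 85, every ApcMin library lay below every Apc1322T library, beside 9.96% of all genes, and in none did every ApcMin library lie above, beside 11.0%. DESeq2 called 1 of these genes at an adjusted p under 0.01, mt-Co2, beside 1.11% of the genes to which it gave an adjusted p, and the value of mt-Co2 rests on how reads were shared with a nuclear copy. The genes share libraries and complexes, so their number does not stand for independent replicates.

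**Figure D1:**
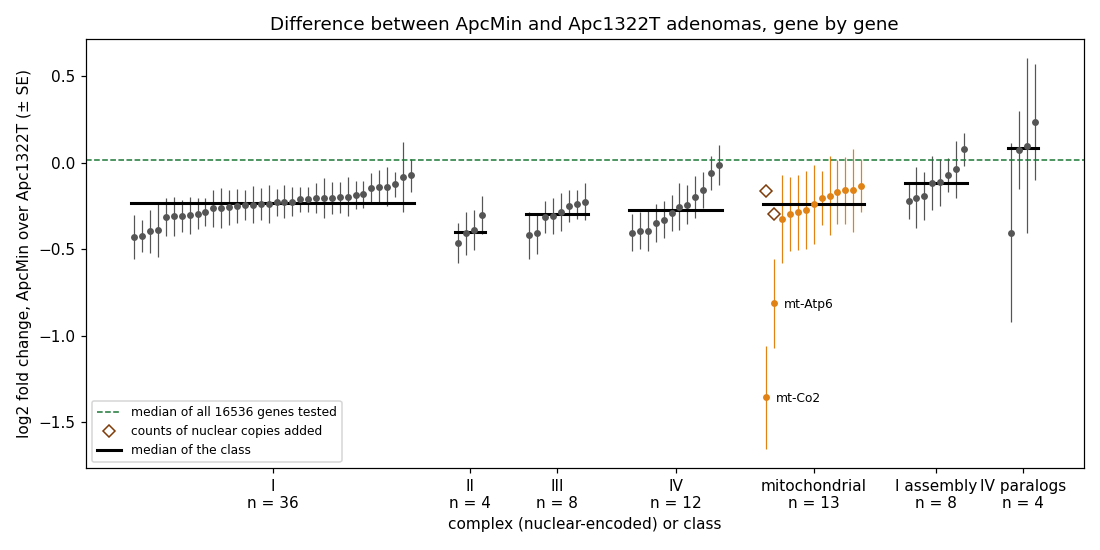
Log2 fold change of each of the 85 tested genes (points, bars are ± SE from edgeR), ApcMin over Apc1322T, by complex for nuclear genes and by class for mitochondrial genes, assembly factors and paralogs. All points of complexes I to IV lie under the dashed median of all genes. The diamonds show mt-Co2 and mt-Atp6 near the other mitochondrial genes once counts of their nuclear copies are added.

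The difference between genotypes was not shared evenly among the libraries. The mean level of the 60 nuclear subunits was 6.80, 7.04 and 6.96 log2 CPM in Apc1322T replicates 1, 2 and 3 and 6.63, 6.69 and 6.69 in ApcMin replicates 1, 2 and 3. The groups did not overlap, and Apc1322T replicate 1 lay nearest to the ApcMin libraries, which were close to each other. Without Apc1322T replicate 1 the median log2 fold change of these 60 genes was -0.32 and 61 of the 85 genes were lower at an unadjusted p under 0.05, beside 13.2% of all genes in that fit. Leaving out Apc1322T replicate 2 gave a median of -0.20 and 12 genes, beside 2.99% of all genes, and leaving out Apc1322T replicate 3 gave -0.25 and 16 genes, beside 3.86%. The corresponding values were -0.24 and 19 genes without ApcMin replicate 1 (4.97% of all genes), -0.27 and 21 genes without ApcMin replicate 2 (6.07%), and -0.27 and 25 genes without ApcMin replicate 3 (4.67%). The share of all genes thus moved with the library left out as well. The median of the 60 nuclear genes stayed below 0 in each of these fits.

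How libraries are put on a common scale matters for a difference of this size. TMM, the scaling used here, raised the effective size of each ApcMin library by a factor of 1.05 to 1.07 and set those of Apc1322T at 0.91 to 1.00. Without it, on total counts alone, the median log2 fold change of all genes moved from 0.02 to 0.17, that of the 60 nuclear subunits became -0.09, and 65 of the 85 genes were lower in ApcMin, 7 of them at an unadjusted p under 0.05, beside 2.11% of all genes in that fit. Relative to the median of all genes, the 60 nuclear subunits lay at -0.26 on total counts and at -0.27 under TMM. The lower level is thus a statement relative to the other genes of the same libraries. In whole tissue, fewer cells of a type and less RNA per cell cannot be told apart. The epithelial, enterocyte and goblet markers had lower means in ApcMin, as these genes did, and the fibroblast, smooth muscle, endothelial and macrophage markers higher means, and their part in the difference was not tested.

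**Figure D2:**
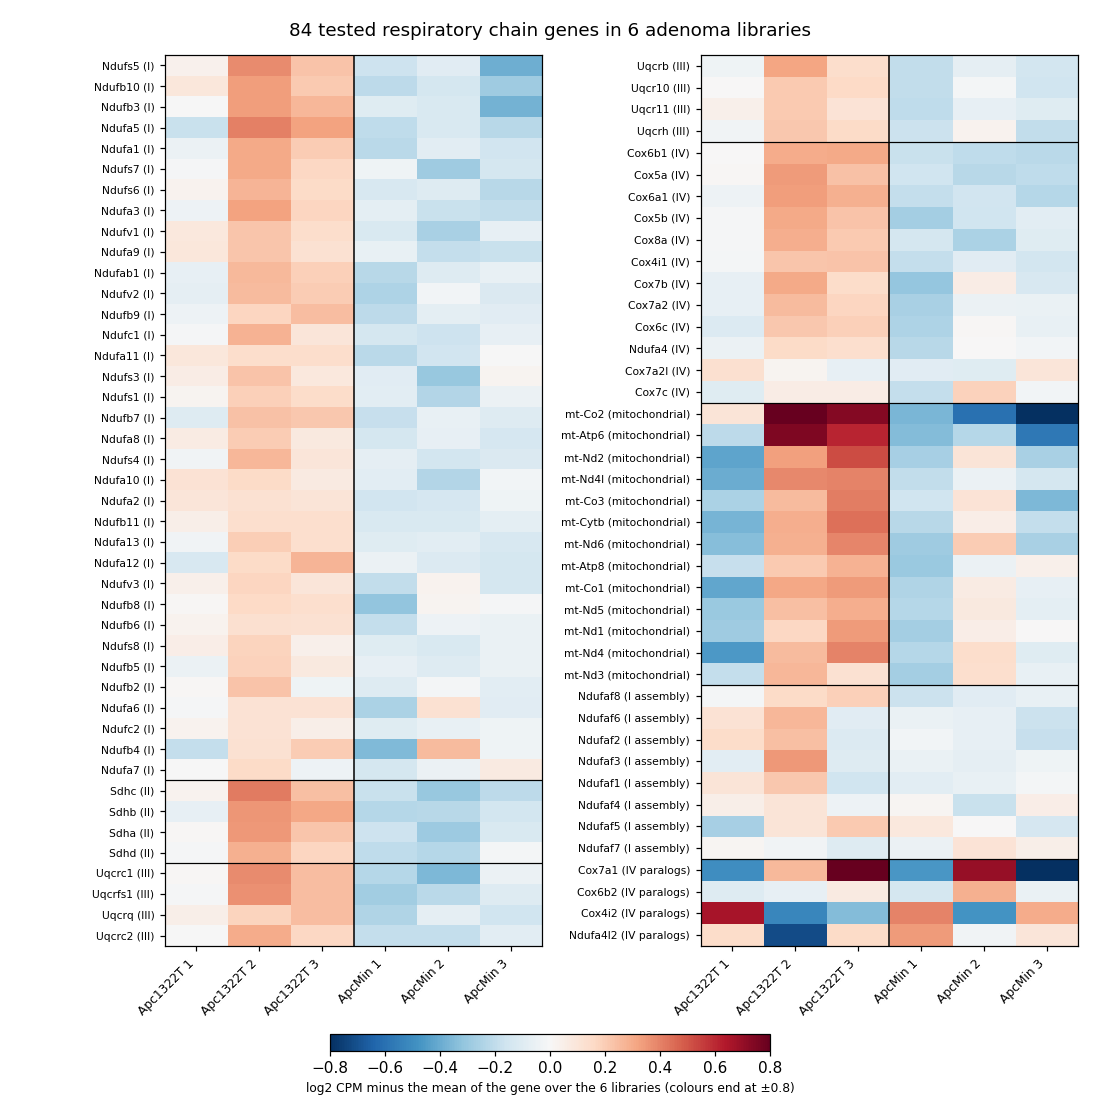
Level of 84 of the 85 tested genes in each library, as log2 CPM minus the mean of that gene over the 6 libraries (red above, blue below), with the class in brackets. Apc1322T replicates 2 and 3 are red in nearly all subunits, Apc1322T replicate 1 is near the mean in nuclear genes and blue in mitochondrial genes, and the ApcMin libraries are mostly blue.

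In complex I, the entry point for electrons from NADH, all 36 nuclear subunits had lower means in ApcMin, and the median log2 fold change was -0.23. Of the 36, 20 were at an unadjusted p under 0.05, beside 7.6% of all genes that were lower. The nuclear core subunits form the arm that carries the electrons. Ndufv1, which binds NADH and flavin mononucleotide, measured 7.34, 7.48 and 7.40 log2 CPM in Apc1322T replicates 1, 2 and 3 and 7.13, 7.0 and 7.19 in the ApcMin replicates, a log2 fold change of -0.30 ± 0.09 (SE) with an adjusted p of 0.279. Every ApcMin library lay below every Apc1322T library. Ndufs1, the largest iron-sulphur subunit of the complex, measured 6.94, 7.11 and 7.07 log2 CPM in Apc1322T and 6.83, 6.69 and 6.87 in ApcMin, a difference of -0.24 ± 0.09 (SE). Ndufs7, which holds the last iron-sulphur cluster before ubiquinone, measured 6.23, 6.55 and 6.41 log2 CPM in Apc1322T and 6.21, 5.96 and 6.10 in ApcMin, a difference of -0.31 ± 0.11 (SE). Again the groups did not overlap in either gene.

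Other core subunits lay close by. Ndufs3 differed by -0.24 ± 0.11 (SE) and the iron-sulphur subunit Ndufs8 by -0.18 ± 0.08 (SE), both without overlap of the groups. Ndufv2, which carries an iron-sulphur cluster beside Ndufv1, differed by -0.26 ± 0.11 (SE), and there 1 ApcMin library (7.11 log2 CPM) exceeded the lowest Apc1322T library (7.06). These log2 fold changes of core subunits ran from -0.31 to -0.18.

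Accessory subunits surround this core. All 29 had lower means in ApcMin, with a median of -0.23 and a range of -0.43 to -0.07. Of the 29, 17 were at an unadjusted p under 0.05, beside 7.6% of all genes. Ndufb10, in the membrane arm, had the smallest p of all nuclear respiratory chain genes (chr17:24722060-24724478, minus strand, GRCm38). It measured 6.52, 6.76 and 6.64 log2 CPM in Apc1322T and 6.22, 6.29 and 6.14 in ApcMin, which is 74.4% of the Apc1322T level, a log2 fold change of -0.43 ± 0.09 (SE) with an adjusted p of 0.257. The lowest Apc1322T library stood 0.23 log2 units above the highest ApcMin library. Ndufa9, at the junction of the arms, measured 7.02, 7.15 and 7.05 log2 CPM in Apc1322T and 6.87, 6.74 and 6.75 in ApcMin, a difference of -0.29 ± 0.08 (SE). At the other end, Ndufa7 differed by -0.07 ± 0.09 (SE) and Ndufb4 by -0.08 ± 0.20 (SE), and their groups overlapped.

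The 8 complex I assembly factors gave smaller differences, with a median of -0.12 and none at an unadjusted p under 0.05. The groups did not overlap in 1, Ndufaf8 (4.17, 4.34 and 4.37 log2 CPM in Apc1322T and 4.01, 4.09 and 4.12 in ApcMin), beside 9.96% of all genes. Ndufaf7, a mitochondrial methyltransferase, was the nuclear gene with the smallest p among those with a higher mean in ApcMin, at 0.08 ± 0.10 (SE), and its groups overlapped. Per length their levels ran from 2.41 (Ndufaf6) to 4.53 (Ndufaf8) log2 CPM per kilobase of merged exons, beside 5.42 (Ndufs1) to 6.49 (Ndufs3) for the core subunits described above. Whether assembly factors and subunits differ in their response was not tested. The 9 tested complex I assembly genes outside this naming series were split, since 5 had lower and 4 had higher means in ApcMin, with none at an unadjusted p under 0.05 and a median of -0.01.

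Complex II, succinate dehydrogenase, had the lowest median of the nuclear classes, -0.40, a level in ApcMin of 75.8% of that in Apc1322T. Complex II is also an enzyme of the citric acid cycle and has no mitochondrially encoded subunit. Sdha, the flavoprotein that oxidises succinate, measured 8.73, 9.06 and 8.94 log2 CPM in Apc1322T replicates 1, 2 and 3 and 8.55, 8.43 and 8.60 in ApcMin. Sdhb, the iron-sulphur subunit, measured 7.08, 7.50 and 7.46 log2 CPM in Apc1322T and 6.92, 6.93 and 7.0 in ApcMin. In both genes every ApcMin library lay below every Apc1322T library, with log2 fold changes of -0.39 ± 0.12 (SE) and -0.41 ± 0.12 (SE) and adjusted p of 0.279 and 0.281.

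Sdhc and Sdhd anchor the enzyme in the membrane and hold its haem. Sdhc (chr1:171127165-171150603, minus strand, GRCm38) measured 7.62, 8.01 and 7.84 log2 CPM in Apc1322T and 7.42, 7.29 and 7.39 in ApcMin, a log2 fold change of -0.47 ± 0.12 (SE) with an adjusted p of 0.263, which was the most negative log2 fold change of any nuclear subunit. Sdhd measured 7.93, 8.22 and 8.11 log2 CPM in Apc1322T and 7.74, 7.71 and 7.92 in ApcMin, a difference of -0.30 ± 0.11 (SE), and its highest ApcMin library (7.92) lay just under its lowest Apc1322T library (7.93). All 4 genes were at an unadjusted p under 0.05, beside 7.6% of all genes, and without overlap, beside 9.96%. Without Apc1322T replicate 1, Sdhb and the mitochondrial mt-Atp6 were the 2 respiratory chain genes with an adjusted p under 0.05, beside 1.22% of all genes in that fit. The value of mt-Atp6 rests on how reads were shared with a nuclear copy. The 4 complex II assembly factors, Sdhaf1 to Sdhaf4, had a median of 0.02, and 3 of them had a log2 fold change above 0.

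Complex III takes electrons from ubiquinol to cytochrome c. Its 8 nuclear subunits in the list all had lower means in ApcMin, with a median of -0.30. Of the 8, 7 were at an unadjusted p under 0.05, beside 7.6% of all genes, and without overlap, beside 9.96%. Uqcrfs1, the Rieske iron-sulphur protein, measured 7.63, 8.0 and 7.88 log2 CPM in Apc1322T and 7.36, 7.42 and 7.53 in ApcMin, a difference of -0.41 ± 0.12 (SE) with an adjusted p of 0.279. Uqcrq, a small subunit next to cytochrome b, measured 7.67, 7.80 and 7.87 log2 CPM in Apc1322T and 7.38, 7.55 and 7.46 in ApcMin, a difference of -0.32 ± 0.09 (SE). The groups were separate in both genes. The core proteins Uqcrc1 and Uqcrc2 differed by -0.42 ± 0.13 (SE) and -0.31 ± 0.10 (SE), and Uqcrh, the hinge protein, was the 1 member whose groups overlapped, at -0.23 ± 0.11 (SE).

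Cyc1, the cytochrome c1 subunit of the same complex, falls outside the naming series. It measured 7.92, 8.26 and 8.14 log2 CPM in Apc1322T and 7.86, 7.83 and 7.97 in ApcMin, and 1 ApcMin library lay above the lowest Apc1322T library. The log2 fold change was -0.23 ± 0.11 (SE) with an adjusted p of 0.377. Cytochrome c itself, Cycs, measured 6.09, 6.86 and 6.79 log2 CPM in Apc1322T and 6.0, 6.10 and 6.05 in ApcMin, a difference of -0.57 ± 0.20 (SE). Apc1322T replicates 2 and 3 lay well above the other 4 libraries, and the lowest Apc1322T library fell within the ApcMin range.

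Complex IV, cytochrome c oxidase, reduces oxygen. The 12 nuclear genes that are not tissue-restricted paralogs all had lower means in ApcMin, with a median of -0.27. Of the 12, 6 were at an unadjusted p under 0.05, beside 7.6% of all genes, and without overlap, beside 9.96%. Cox5a measured 8.19, 8.52 and 8.41 log2 CPM in Apc1322T and 8.02, 7.96 and 7.98 in ApcMin, a difference of -0.39 ± 0.11 (SE) with an adjusted p of 0.279. Cox6b1, on the intermembrane side, measured 8.25, 8.55 and 8.55 log2 CPM in Apc1322T and 8.07, 8.05 and 8.03 in ApcMin, a difference of -0.40 ± 0.11 (SE) with an adjusted p of 0.278. In both genes the ApcMin libraries lay close to each other and below all Apc1322T libraries.

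Cox4i1, the most abundant of the nuclear genes per length, measured 8.97, 9.21 and 9.21 log2 CPM in Apc1322T and 8.79, 8.89 and 8.84 in ApcMin, a difference of -0.29 ± 0.10 (SE). Cox6a1 differed by -0.39 ± 0.12 (SE), Cox5b by -0.35 ± 0.11 (SE) and Cox8a by -0.33 ± 0.11 (SE), again without overlap. Cox7a2, Cox7b, Cox6c and Ndufa4 differed by -0.24, -0.26, -0.20 and -0.16, and their groups overlapped. Ndufa4 is named as a complex I gene but its product belongs to complex IV. Cox7a2l, a factor linked to supercomplexes of complexes III and IV, measured 7.37, 7.26 and 7.17 log2 CPM in Apc1322T and 7.15, 7.14 and 7.33 in ApcMin. The difference was -0.06 ± 0.10 (SE) with full overlap.

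Cox7c gave a difference of -0.01 ± 0.12 (SE) as counted, with 5.92, 6.07 and 6.07 log2 CPM in Apc1322T and 5.82, 6.19 and 5.99 in ApcMin. Its transcript shares stretches of at least 50 bases, the read length, with the pseudogenes Gm10012 and Gm12338. With their counts added, the gene measured 8.01, 8.26 and 8.17 log2 CPM in Apc1322T and 7.82, 8.01 and 7.80 in ApcMin, and the difference was -0.27 ± 0.11 (SE), without overlap. The added counts thus outweigh those of the gene, and the value for Cox7c depends on where its reads are counted. In all, 13 of the 76 nuclear genes have such copies. Adding them moved Ndufb4 to -0.19 and Ndufa12 from -0.21 to -0.27, and the median over the 60 nuclear subunits from -0.25 to -0.26.

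Complex IV has paralogs that replace ubiquitous subunits in certain tissues. Of the 8 such genes, 4 were too low to test. Cox6a2 and Cox8b, the heart and skeletal muscle forms of Cox6a1 and Cox8a, had 0 to 10 and 0 to 2 counts per library. Cox7b2 and Cox8c, found in testis, had 0 counts in every library, which allows up to 3 counts per library, or 0.0895 to 0.130 CPM. Of 10 striated muscle markers, the myosins Myh2, Myh4 and Myh6 had 0 counts in each library, Acta1 had 24 to 64, Ckm 7 to 24 and the other 5 had 0 to 10. Of the tested paralogs, Cox4i2 measured 0.04, -1.14 and -0.97 log2 CPM in Apc1322T and -0.23, -1.10 and -0.32 in ApcMin, Cox6b2 1.52 to 1.94 log2 CPM and Ndufa4l2 0.10 to 1.15 log2 CPM over the 6 libraries. Their differences of 0.10 ± 0.51 (SE), 0.07 ± 0.22 (SE) and 0.24 ± 0.33 (SE) were smaller than their standard errors. Leaving out 1 library turned the sign of each of them, the libraries being Apc1322T replicate 2 or 3 or ApcMin replicate 1 or 3 for Cox4i2, ApcMin replicate 2 for Cox6b2 and Apc1322T replicate 2 for Ndufa4l2.

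Cox7a1, the muscle form of Cox7a2, was the exception in level. It measured 3.98, 4.74 and 5.40 log2 CPM in Apc1322T replicates 1, 2 and 3 and 4.01, 5.17 and 3.56 in ApcMin replicates 1, 2 and 3. The spread within each genotype was over 1 log2 unit, the groups overlapped fully, and the difference was -0.41 ± 0.52 (SE) with an adjusted p of 0.716. The smooth muscle markers summed to 271.3, 141.4 and 266.8 CPM in Apc1322T and 361.8, 459.7 and 319.6 CPM in ApcMin. Their sums followed the order of Cox7a1 within ApcMin but not within Apc1322T. The epithelial markers summed to 13955.0, 15183.6 and 15863.0 CPM in Apc1322T and 12304.1, 14010.6 and 11917.2 CPM in ApcMin, in the order of Cox7a1 within both genotypes. The mean log2 CPM of the enterocyte and Paneth cell markers, though not their summed CPM, also followed that order in both. The part of any of these cells in the level of Cox7a1 was not tested. AA467197, the mouse gene for Nmes1, a protein related to Ndufa4, measured 7.58, 7.79 and 7.75 log2 CPM in Apc1322T and 7.55, 7.98 and 7.23 in ApcMin, a difference of -0.09 ± 0.19 (SE) that turned to 0.07 without ApcMin replicate 3.

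Levels of different genes can be compared only per length, here as log2 CPM per kilobase of merged exons averaged over the 6 libraries. Among nuclear genes, Cox4i1 (9.37), Cox8a (9.03), Cox6a1 (8.98), Cox6b1 (8.94) and Cox5a (8.81) of complex IV stood highest, followed by Uqcrh (8.62) of complex III. The core subunits of complex I described above ran from 5.42 for Ndufs1 to 6.49 for Ndufs3, and complex II from 5.93 for Sdhc to 7.64 for Sdhd. In each tested complex IV pair the ubiquitous gene stood above its paralog, with Cox7a2 at 7.89 and Cox7a1 at 5.38, Cox6b1 at 8.94 and Cox6b2 at 2.09, Ndufa4 at 8.19 and Ndufa4l2 at 0.91, and Cox4i1 at 9.37 and Cox4i2 at -0.28. Merged exons include rare long ends, as in Ndufb2 and Ndufab1, and a gene with such ends is placed too low on this scale.

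**Figure D3:**
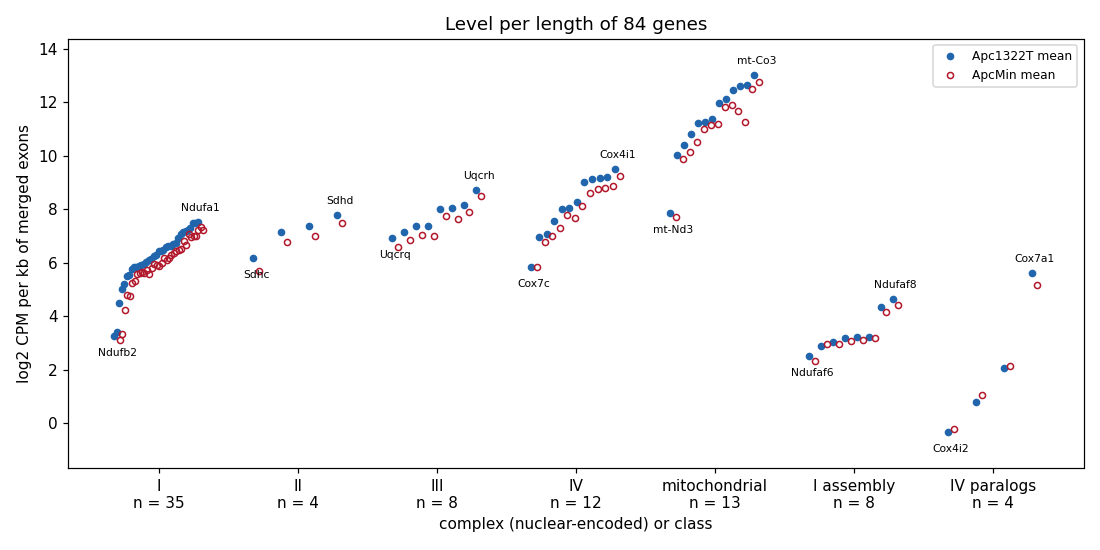
Level per length (log2 CPM per kilobase of merged exons) of 84 of the 85 tested genes by complex or class, as the mean of the 3 Apc1322T libraries (filled) and of the 3 ApcMin libraries (open), with the lowest and highest gene shown of each class named. Open points lie under filled ones for nearly all subunits, mitochondrial genes stand above nuclear ones except mt-Nd3, and Cox7a1 stands above the other tested paralogs.

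The 13 mitochondrial genes took 3.10, 4.57 and 4.77% of all counts in Apc1322T replicates 1, 2 and 3 and 3.45, 4.09 and 3.44% in ApcMin replicates 1, 2 and 3, means of 4.15% ± 0.91 (SD, n = 3) and 3.66% ± 0.37 (SD, n = 3). The groups overlapped, because Apc1322T replicate 1 had the lowest share of all 6 libraries. Messenger RNA was isolated before the libraries were made, so this is a share of the captured and counted transcripts and not of total RNA. As counted, all 13 had lower means in ApcMin, 2 at an unadjusted p under 0.05 (mt-Co2 and mt-Atp6), beside 7.6% of all genes. The mitochondrial genome is transcribed as long precursors that are cut into messages.

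Before these genes can be read, their nuclear copies need a description. A stretch of mouse chromosome 1 (chr1:24611535-24616197, minus strand, GRCm38) holds a nearly exact copy of part of the mitochondrial genome, annotated as pseudogenes that entered the count table as genes of their own. Of the 13 mitochondrial genes, 7 have a copy there of all or part of their length. Gm28661 is identical to mt-Co2 over 681 bases and lacks only the last 3 bases of the mitochondrial gene, and Gm10925 is identical to mt-Atp6 over 678 bases and lacks the last 3. The ends of these genes and their copies, read from the GENCODE M21 transcripts, are shown because no read of 50 bases inside the shared part can tell them apart. Capitals mark the bases that the copy lacks. mt-Co2 is at chrM:7013-7696 and Gm28661 at chr1:24614885-24615565, mt-Atp6 at chrM:7927-8607 and Gm10925 at chr1:24613974-24614651.
mt-Co2: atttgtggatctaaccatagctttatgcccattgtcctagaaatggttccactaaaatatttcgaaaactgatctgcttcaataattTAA
Gm28661: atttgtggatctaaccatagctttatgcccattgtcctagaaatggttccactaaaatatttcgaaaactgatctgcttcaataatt
mt-Atp6: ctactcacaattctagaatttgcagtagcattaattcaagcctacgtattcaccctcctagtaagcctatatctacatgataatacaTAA
Gm10925: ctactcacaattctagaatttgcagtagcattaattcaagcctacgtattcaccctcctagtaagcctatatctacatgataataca

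The share of the joint counts that was assigned to the mitochondrial gene differed between libraries. For mt-Co2 it was 64.4, 87.2 and 59.6% in Apc1322T replicates 1, 2 and 3 and 41.5, 28.5 and 24.2% in the ApcMin replicates. For mt-Atp6 it was 41.1, 58.3 and 48.3% and 39.8, 34.7 and 30.8%. In both genes every ApcMin library assigned a smaller share to the mitochondrial gene than any Apc1322T library. For mt-Co1, which shares only part of its length with copies, the share was even, at 61.7, 62.6 and 60.8% and 61.2, 61.0 and 60.8%. For mt-Nd4 it went the other way, with 90.9, 90.1 and 92.9% in Apc1322T and 93.8, 95.5 and 94.9% in ApcMin, also without overlap. The copy of mt-Co3, Gm28437, received 7, 0 and 1 counts in Apc1322T and 79, 1431 and 42580 in ApcMin, although mt-Co3 itself had 136880 to 191493 counts in every library.

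As counted, mt-Co2 measured 11.49, 12.53 and 12.12 log2 CPM in Apc1322T and 11.03, 10.79 and 10.37 in ApcMin, a log2 fold change of -1.35 ± 0.30 (SE) with an adjusted p of 0.257. With its copies added it measured 12.13, 12.73 and 12.87 log2 CPM in Apc1322T and 12.30, 12.61 and 12.42 in ApcMin, and the difference was -0.16 ± 0.22 (SE) with an adjusted p of 0.722. The groups, separate as counted, then overlapped. mt-Atp6 went from -0.81 ± 0.26 (SE) to -0.30 ± 0.19 (SE), with an adjusted p of 0.286 as counted and 0.468 with its copy added. The counts show only that the assignment moved with genotype for these genes, and whether any read came from the nuclear copy was not tested.

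**Figure D4:**
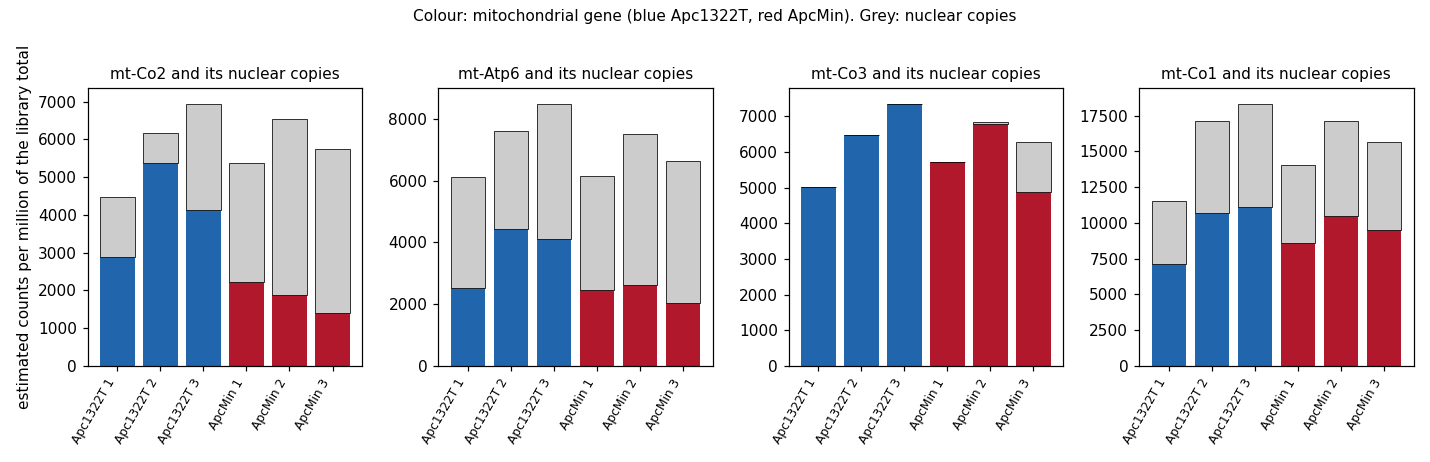
Estimated counts, as CPM of the library total, for mt-Co2, mt-Atp6, mt-Co3 and mt-Co1 (blue in Apc1322T, red in ApcMin) with the counts of their nuclear copies stacked on top in grey, by library. The coloured part of the mt-Co2 and mt-Atp6 bars is lower in ApcMin while the whole bars overlap between genotypes, and the split of mt-Co1 is even.

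With all copies added, none of the 13 mitochondrial genes was at an unadjusted p under 0.05 and none had separate groups. The median log2 fold change was -0.21 and the range -0.33 to -0.16. The share of all counts became 4.14, 5.72 and 6.32% in Apc1322T and 4.76, 5.82 and 5.17% in ApcMin, means of 5.39% ± 1.13 (SD, n = 3) and 5.25% ± 0.53 (SD, n = 3). mt-Nd3, a complex I subunit, was raised most in level, from 6.0, 6.40 and 6.21 to 9.31, 9.74 and 9.38 log2 CPM in ApcMin, because its copy Gm28438 received most of the joint counts in every library. Its low place per length among mitochondrial genes was that of the counts left to the gene.

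The other 6 mitochondrial genes have no such copy in the table. mt-Cytb, the cytochrome b of complex III, measured 11.83, 12.49 and 12.65 log2 CPM in Apc1322T and 11.98, 12.26 and 12.01 in ApcMin, a difference of -0.28 ± 0.23 (SE). mt-Nd2, a membrane subunit of complex I, measured 10.29, 11.05 and 11.24 log2 CPM in Apc1322T and 10.45, 10.82 and 10.46 in ApcMin, a difference of -0.33 ± 0.26 (SE). Apc1322T replicate 1 was lowest in both genes, under every ApcMin library, and Apc1322T replicate 3 was highest. mt-Nd1, mt-Nd5 and mt-Nd6 of complex I differed by -0.16 ± 0.19 (SE), -0.17 ± 0.18 (SE) and -0.24 ± 0.23 (SE), and mt-Atp8 of ATP synthase by -0.21 ± 0.16 (SE), with overlap in each. mt-Nd6 is the 1 protein gene on the other strand of the mitochondrial genome.

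mt-Nd4, mt-Nd4l, mt-Co1 and mt-Co3, which have copies, differed as counted by -0.16 ± 0.24 (SE), -0.30 ± 0.21 (SE), -0.19 ± 0.23 (SE) and -0.29 ± 0.22 (SE), and mt-Nd3 by -0.13 ± 0.15 (SE). None of these 5 had separate groups. For mt-Nd4 the sign rested on 1 library, since the log2 fold change was 0.01 without Apc1322T replicate 3. The standard errors of the 13 mitochondrial genes, 0.15 to 0.30, were larger than those of most nuclear subunits although their counts were higher. The mean level of the 13 genes was 10.47, 11.13 and 11.16 log2 CPM in Apc1322T and 10.50, 10.76 and 10.52 in ApcMin. Apc1322T replicate 1 thus lay below all ApcMin libraries in mitochondrial genes and above all of them in nuclear subunits. Without that library, the median of the mitochondrial genes was -0.43, and without Apc1322T replicate 3 it was -0.12.

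The nuclear partners outside the naming series were read from lists of related genes. ATP synthase, which the nuclear part of the list lacks, had lower means in ApcMin for all 18 nuclear genes, with a median of -0.28. Of the 18, 9 were at an unadjusted p under 0.05, beside 7.6% of all genes that were lower. Atp5a1 and Atp5b, the catalytic head subunits, measured 10.39, 10.56 and 10.50 and 10.65, 10.83 and 10.80 log2 CPM in Apc1322T and 10.20, 10.08 and 10.24 and 10.50, 10.45 and 10.52 in ApcMin, with separate groups and differences of -0.31 ± 0.11 (SE) and -0.27 ± 0.11 (SE). Atpif1, which inhibits the enzyme when it runs backwards, differed by -0.38 ± 0.17 (SE), with overlap. Of 12 electron carrier and ubiquinone synthesis genes, 11 had lower means in ApcMin. Cycs, Etfa and Etfdh, 3 of the 12, were lower at an unadjusted p under 0.05, beside 7.6% of all genes. Etfdh, which feeds electrons from fatty acid oxidation to ubiquinone, measured 6.50, 6.71 and 6.61 log2 CPM in Apc1322T and 6.10, 6.23 and 6.25 in ApcMin, a difference of -0.42 ± 0.09 (SE).

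Of 25 complex IV assembly genes, 23 had lower means in ApcMin, with a median of -0.19. At an unadjusted p under 0.05, 5 were lower, beside 7.6% of all genes. The copper chaperone Sco1 differed by -0.42 ± 0.15 (SE). The 78 proteins of the mitochondrial ribosome, which translates the 13 mitochondrial messages, had a median of -0.13, with 68 lower in ApcMin. Of these, 9 were at an unadjusted p under 0.05, beside 7.6% of all genes. Of 7 genes for complex III outside the list, 6 had lower means and none was at an unadjusted p under 0.05. Over all 187 related genes, 27 were lower and 2 were higher at an unadjusted p under 0.05, beside 7.6% and 7.49% of all genes. None passed the adjusted threshold.

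Genes that act on the mitochondrial genome were split in direction. Of 25 such genes, 13 had lower and 12 higher means in ApcMin, and the median was 0.00. Only 1, the single-stranded DNA-binding protein Ssbp1, was at an unadjusted p under 0.05, with a higher mean, beside 7.49% of all genes. Ssbp1 measured 4.70, 4.62 and 4.45 log2 CPM in Apc1322T and 4.81, 4.97 and 4.91 in ApcMin, a difference of 0.31 ± 0.10 (SE), without overlap. Tfam, which packages the mitochondrial genome and takes part in its transcription, measured 5.36, 5.39 and 5.37 log2 CPM in Apc1322T and 5.35, 5.22 and 5.53 in ApcMin, a difference of 0.00 ± 0.10 (SE). Polrmt, the mitochondrial RNA polymerase, differed by -0.17 ± 0.09 (SE), and Lrpprc, which stabilises mitochondrial messages, by -0.17 ± 0.09 (SE), with separate groups in both.

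Among 9 transcriptional regulators of respiratory genes the values differed in direction. Ppargc1b, a coactivator of mitochondrial biogenesis, measured 2.72, 3.53 and 3.32 log2 CPM in Apc1322T and 2.51, 2.60 and 2.73 in ApcMin, a difference of -0.61 ± 0.23 (SE), and 1 ApcMin library lay above Apc1322T replicate 1. Esrra, the nuclear receptor that works with such coactivators, measured 6.85, 7.51 and 7.38 log2 CPM in Apc1322T and 6.83, 7.02 and 6.70 in ApcMin, a difference of -0.42 ± 0.18 (SE) with overlap. Ppargc1a differed by -0.19 ± 0.24 (SE), a value that turned to 0.08 without Apc1322T replicate 3. Nrf1 and Gabpa, whose products bind promoters of many respiratory genes, differed by -0.06 ± 0.09 (SE) and 0.06 ± 0.09 (SE), and their groups overlapped. Esrrg had 17, 8 and 7 counts in Apc1322T and 29, 23 and 136 in ApcMin, so that its value rested on few reads in most libraries.

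**Figure D5:**
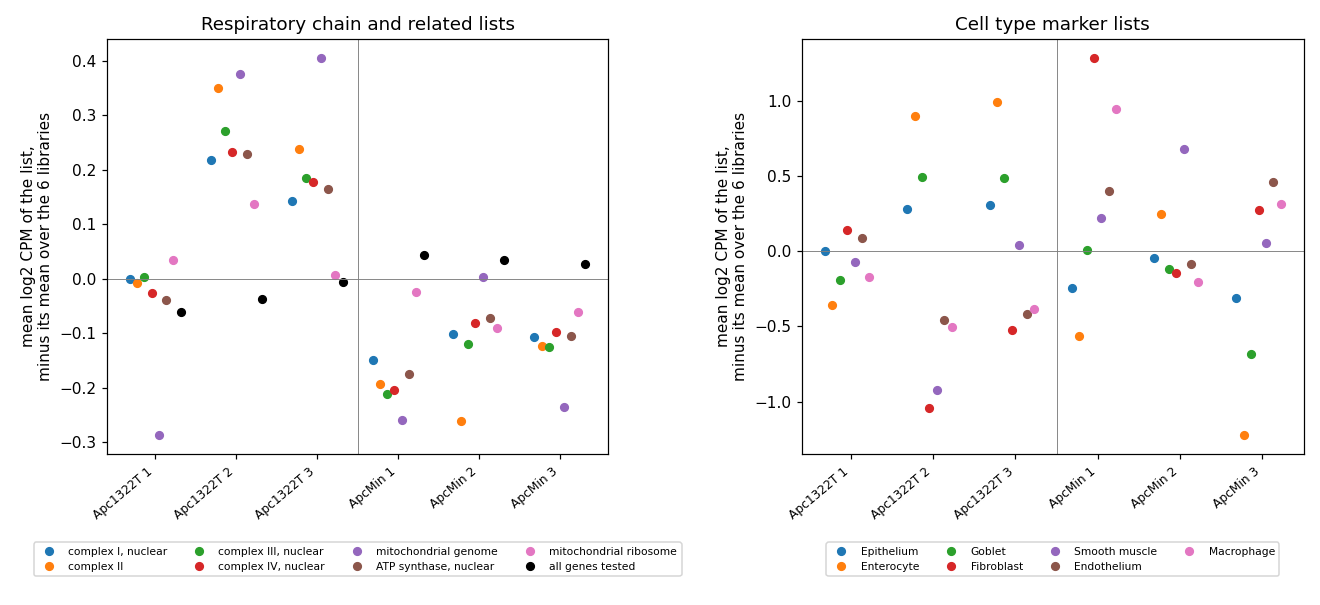
Mean log2 CPM of gene lists in each library, minus the mean of that list over the 6 libraries, for complexes I to IV, the mitochondrial genome, ATP synthase, the mitochondrial ribosome and all genes tested (left) and for cell type markers (right, on a wider scale). The nuclear complexes separate the genotypes, the mitochondrial genes of Apc1322T replicate 1 lie with ApcMin, and the epithelial markers have a lower and the fibroblast markers a higher mean in ApcMin.

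Promoters of nuclear respiratory genes often carry sites for Nrf1, for Ets-family factors such as Gabpa and for Yy1. RefSeq promoters of GRCm38.p6, from 250 bases before to 50 bases after a transcription start, were found for 61 of the 76 nuclear genes (63 promoters). The letters GCGCATGC, the core of the Nrf1 site, stood on either strand in 9 of the 63 (14.3%), beside 2.71% of all 32851 promoters. CCGGAAG, an Ets site, stood in 13 (20.6%, beside 8.86%), and AAGATGGC, the Yy1 core, in 8 (12.7%, beside 2.75%). At least 1 of these motifs stood in 26 promoters (41.3%, beside 13.3%). The median log2 fold change was -0.24 over the 26 tested genes with a motif and -0.23 over the 33 tested genes whose promoters held none. A match is a string of letters and not a measured binding site. Of the genes described above, Sdhb, Cox6a1 and Cox6b1 are shown with the 250 bases before their starts, at chr4:140961021-140961270 on the plus strand, chr5:115348959-115349208 on the minus strand and chr7:30626115-30626364 on the minus strand. Capitals mark the Nrf1 letters in Sdhb, on the opposite strand, and in Cox6a1, where matches on both strands overlap. They also mark the Ets letters in Cox6a1 and Cox6b1, there on the opposite strand. Sdhb holds the Ets letters too, in the 50 bases after its start, which are not shown.
Sdhb: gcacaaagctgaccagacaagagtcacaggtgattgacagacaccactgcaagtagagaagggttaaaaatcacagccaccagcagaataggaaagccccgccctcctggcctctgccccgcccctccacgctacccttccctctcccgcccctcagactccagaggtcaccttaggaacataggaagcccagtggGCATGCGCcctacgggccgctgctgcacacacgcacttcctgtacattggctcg
Cox6a1: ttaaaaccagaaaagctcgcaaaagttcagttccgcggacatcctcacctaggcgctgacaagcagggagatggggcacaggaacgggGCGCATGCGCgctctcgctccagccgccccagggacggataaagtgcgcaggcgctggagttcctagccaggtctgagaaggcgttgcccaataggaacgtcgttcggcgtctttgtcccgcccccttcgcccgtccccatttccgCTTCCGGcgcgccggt
Cox6b1: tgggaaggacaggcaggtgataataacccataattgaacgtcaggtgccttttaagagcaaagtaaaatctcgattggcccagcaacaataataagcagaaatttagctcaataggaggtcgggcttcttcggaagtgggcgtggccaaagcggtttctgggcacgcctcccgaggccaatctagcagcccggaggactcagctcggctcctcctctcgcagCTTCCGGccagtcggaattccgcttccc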

How the data were processed

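RNA from excised intestinal adenomas of 3 Apc1322T/+ and 3 ApcMin/+ samples was sequenced as stranded single-end reads of 50 bases after messenger RNA isolation. The authors quantified transcripts with Salmon against GRCm38.p6 (names from the submitters' processing notes and the study's methods) and deposited estimated counts per Ensembl gene, which need not be whole, for the 6 samples in 1 table. No column of the authors' own comparisons was used. The labels number the samples within each genotype without naming mice, so p-values measure the spread between these samples.

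Estimated counts were rounded and matched to GENCODE M21 by Ensembl identifier (34652 of 34866 genes). Genes were kept by edgeR's filterByExpr (minimum count 10, minimum total 15) and scaled by TMM, and ApcMin was compared with Apc1322T over all genes kept by edgeR 4.0.16 (R 4.3.3) quasi-likelihood tests without covariates, adjusted after Benjamini and Hochberg, and 0.01 was the threshold. Log2 CPM used a prior count of 2. SE is that of the fitted log2 fold change, and the depth of 23132461 to 33518324 counts leaves 3 counts worth 0.0895 to 0.130 CPM. This limit covers counting error only, whereas the SE includes the spread between samples. Copies were genes of the table sharing words of 50 bases with a transcript of the gene, at least 10% of the gene's words or 30% of the copy's own. Levels per length used merged exons of basic protein-coding transcripts. Exact promoter letters were searched on both strands of RefSeq sequences. The fit was tested on simulated data.

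The genes, the related lists and the markers were chosen with earlier results of these data known. Named with values were the 13 mitochondrial genes, the Sdh genes, the 8 nuclear genes with the smallest p in each direction (4 had a higher mean), the complex IV paralogs and partners, nuclear core subunits and 12 related genes, and 1 gene is not reported here. Ndufaf8, Ndufa7, Ndufb4, Ndufa12, Cox5b, Cox6c, Cox7c, Uqcrc1, Uqcrc2, Uqcrh, Etfa, Etfdh, Sco1, Ssbp1 and Esrrg were named after their values were seen. Alternatives were DESeq2 1.42.0, relative log expression factors, library sizes without mitochondrial genes, other filters, a replicate block, each library left out, an adjusted p of 0.05 and, for the mitochondrial share, a protein-coding denominator. Summing copies with their gene and scaling by total counts were added after seeing the data. Protein sequences and mitochondrial ribosomal and transfer RNA were not analysed here.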

Additional observations from a re-analysis of the deposited data

How the results depend on the processing

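The median log2 fold change of the 60 nuclear subunits was below 0 under every alternative run, from -0.316 without Apc1322T replicate 1 to -0.0869 on total counts without TMM, where 7 respiratory chain genes were lower at an unadjusted p under 0.05, beside 2.11% of all genes, and 19 had separate groups (18 lower, beside 540 of all 16536 genes, and 1 higher). Between 12 (without Apc1322T replicate 2, beside 2.99% of all genes) and 61 (without Apc1322T replicate 1, beside 13.2%) of these genes were lower at an unadjusted p under 0.05 when 1 library was left out, and 0 to 1 gene of the whole table passed an adjusted p of 0.01. Of all genes, DESeq2 called 194 and, among respiratory chain genes, 1, mt-Co2 (log2 fold change -1.37), with 5 at an adjusted p under 0.05, beside 2.70% of all genes. These 5 were mt-Co2, mt-Atp6, Sdhc, Ndufb10 and Cox6b1, and the values of mt-Co2 and mt-Atp6 rest on how reads were shared with nuclear copies. Fits with no filter, or with an adjusted p of 0.05, called 1 gene in all and no respiratory chain gene. The groups share replicate numbers, but same-numbered samples are not said to come from 1 mouse, and their deviations correlated at -0.0139, 0.164 and -0.286. With the replicate block, 34 respiratory chain genes were lower at an unadjusted p under 0.05, beside 6.30% of all genes, none passed 0.01, and the median of the 60 nuclear subunits was -0.248.

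Of 783 values for 56 named genes under alternatives, 759 kept direction and call and 23, from 13 genes, reversed in sign. On total counts these were mt-Nd1 (0.00654), mt-Nd3 (0.0311), mt-Nd4 (0.0111), Cox7a2l (0.0962), Ndufa4 (0.00304), AA467197 (0.076), Tfam (0.159) and Nrf1 (0.104). With 1 library left out, ranges spanning 0 were -0.374 to 0.00636 for mt-Nd4, -0.00439 to 0.379 for Ndufa4l2, -0.066 to 0.159 for Cox6b2, -0.135 to 0.641 for Cox4i2, -1.02 to 0.00315 for Cox7a1, -0.307 to 0.0725 for AA467197, -0.0854 to 0.0665 for Tfam and -0.382 to 0.0781 for Ppargc1a. Tfam was 0.00215 with no filter and 0.00578 with the stricter one. The cause was not tested. With 3 libraries in each genotype, edgeR called none of these differences over all genes at an adjusted p under 0.01, whereas DESeq2 called mt-Co2. The depth limits only the paralogs with few counts.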
